A study of Mus musculus with 9 samples.

Results

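The genes described here are 10 genes of lipid droplets and fatty acid uptake: Plin2, Plin4, Plin5, Cidea, Cideb, Cidec, G0s2, Pnpla2, Mogat1 and Cd36. They were chosen by gene symbol and make up 10 of the 21873 genes in an mRNA table of mouse liver, and all 10 were among the 14094 genes tested. The livers came from male C57BL/6 mice that were 8 weeks old at the start, with 1 library per mouse and 3 mice in each of 3 groups. Control mice received saline by intraperitoneal injection. TAA mice received thioacetamide, a compound that liver enzymes turn into a hepatocyte toxin, at 200 mg/kg every 3 days for 8 weeks, and their livers were taken 72 h after the last dose. Recovery mice had the same course of TAA and then 8 weeks without it, so they were 8 weeks older at collection than the other mice, and livers of untreated mice of that age were not analysed here. All mice ate freely, and the hour of collection was not stated.

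Lipid droplets are stores of triglyceride and cholesteryl ester under a single layer of phospholipid and coat proteins. In hepatocytes they fill from fatty acids that enter from blood or are made in the cell, and they are emptied by lipases, by secretion of lipoproteins and by oxidation of the released fatty acids. Perilipins coat the droplet, CIDE proteins bring droplets together and help to load lipoproteins, and many of these genes are known targets of the PPAR family of nuclear receptors.

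The values were FPKM made by the authors, fragments per kilobase of gene relative to all mapped fragments of the library, which can be compared between genes. FPKM of a gene also depends on what the other genes of its library take of the reads, so each library was divided by a scaling factor, the median of its ratios to a typical library over the 14005 genes above 0 in all 9 libraries. The factors were 0.827 to 0.878 in control, 1.29 to 1.38 in TAA and 0.893 to 0.907 in recovery. Before the pseudocount of 0.1, this moved every log2 fold change by -0.64 in TAA against control, by 0.56 in recovery against TAA and by -0.08 in recovery against control, relative to the FPKM as deposited. Levels below are scaled FPKM unless the text says otherwise. The file gives no counts, and the depth estimated from the steps between its low values was 26.6 to 35.4 M fragments in control, 38.4 to 40.2 M in TAA and 34.6 to 40.4 M in recovery. At that depth 56.6% to 64.0% of the values used came within 0.08 fragments of a whole number, against 16% by chance. A gene passed the test when limma gave an adjusted p under 0.05 over all tested genes and a fold change of at least 2.

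In mouse genome build mm10, Plin4 (ENSMUSG00000002831, chr17:56100591-56109803) and Plin5 (ENSMUSG00000011305, chr17:56111601-56117596) lie on the minus strand with 1797 bases between them. Plin2 (ENSMUSG00000028494) lies at chr4:86648386-86670060 on the minus strand, Mogat1 (ENSMUSG00000012187) at chr1:78510991-78538173 on the plus strand and Cd36 (ENSMUSG00000002944) at chr5:17781690-17888801 on the minus strand. RefSeq promoter windows for build GRCm38.p6, each the 250 bases before the start site, were matched for 9 of the 10 genes. Of these, 5 windows are printed here. Those of the neighbouring pair Plin4 and Plin5 are shown because both genes fell in TAA and rose in recovery over TAA. Those of Plin2 and Cd36 are shown because these genes had the highest mean levels in TAA, where Cd36 overlapped Cideb. That of Mogat1 is shown because it had a match to the receptor motif near its start. The 3 motifs below were searched on both strands: AGGTCA, the hexamer that many nuclear receptors bind; AGGTCANAGGTCA, 2 such hexamers 1 base apart, the arrangement known for PPAR with RXR, with up to 2 mismatches; and TATAA, the core of the TATA box. Capitals mark the matches, and the sequences run 5′ to 3′ on the strand of the gene, from chr4:86670060-86670309 (minus strand) for Plin2, chr17:56109783-56110032 (minus strand) for Plin4, chr17:56117549-56117798 (minus strand) for Plin5, chr1:78510810-78511059 (plus strand) for Mogat1 and chr5:17835897-17836146 (minus strand) for Cd36.
Plin2: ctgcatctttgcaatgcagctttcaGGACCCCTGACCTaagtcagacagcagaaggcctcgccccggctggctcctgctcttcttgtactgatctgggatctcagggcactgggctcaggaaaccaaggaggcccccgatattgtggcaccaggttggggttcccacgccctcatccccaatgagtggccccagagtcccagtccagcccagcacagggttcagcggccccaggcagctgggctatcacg
Plin4: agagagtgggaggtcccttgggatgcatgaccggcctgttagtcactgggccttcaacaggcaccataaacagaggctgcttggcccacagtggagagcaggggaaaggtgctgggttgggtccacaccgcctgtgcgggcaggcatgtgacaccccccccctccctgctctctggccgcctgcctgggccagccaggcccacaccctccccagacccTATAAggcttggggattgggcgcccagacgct
Plin5: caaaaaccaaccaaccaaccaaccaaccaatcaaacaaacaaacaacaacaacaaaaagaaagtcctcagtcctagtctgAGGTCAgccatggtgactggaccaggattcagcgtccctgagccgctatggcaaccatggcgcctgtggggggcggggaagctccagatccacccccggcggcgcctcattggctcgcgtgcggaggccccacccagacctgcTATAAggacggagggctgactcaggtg
Mogat1: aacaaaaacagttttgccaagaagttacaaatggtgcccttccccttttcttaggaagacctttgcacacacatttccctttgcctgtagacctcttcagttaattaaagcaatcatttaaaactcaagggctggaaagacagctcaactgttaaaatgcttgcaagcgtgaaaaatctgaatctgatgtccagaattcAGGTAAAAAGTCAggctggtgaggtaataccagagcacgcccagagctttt
Cd36: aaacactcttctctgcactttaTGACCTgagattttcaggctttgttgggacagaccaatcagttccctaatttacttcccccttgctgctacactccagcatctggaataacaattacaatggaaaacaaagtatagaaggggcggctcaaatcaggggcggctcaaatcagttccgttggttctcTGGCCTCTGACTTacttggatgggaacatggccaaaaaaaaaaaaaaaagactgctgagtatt

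AGGTCA was found in the windows of Plin5, 170 to 165 bases before the start, and, on the opposite strand, of Plin2 at 218 to 213 and Cd36 at 228 to 223, against 14.0% of 32851 windows in the RefSeq table. AGGTCANAGGTCA with up to 2 mismatches was found for Mogat1 (AGGTAAAAAGTCA, 51 to 39 bases before the start), for Cd36 (TGGCCTCTGACTT, opposite strand, 63 to 51) and for Plin2 (GGACCCCTGACCT, opposite strand, 225 to 213), against 3.24% of windows, and the match of Plin2 overlaps its AGGTCA. The TATAA core lay 32 to 28 bases before the start of Plin4 and 27 to 23 before that of Plin5. On the strand of the gene and starting 40 to 20 bases before the start, 3.52% of windows held it, and 22.8% held it anywhere on either strand. Cideb had a TATAA farther off, at 172 to 168, and the windows of Cidec, G0s2 and Pnpla2 held none of these motifs. A match is a description of the sequence and not evidence of binding, and the RefSeq start sites do not coincide with the 5′ ends of the annotated loci. The start site used lies 52905 bases inside the locus for Cd36, 2790 for Cidec, 69 for Mogat1 and 48 for Plin5, so the Mogat1 match near the start and the TATAA of Plin5 lie inside the loci given above.

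In control liver the 10 genes differed widely in level. Plin2, the perilipin that coats most droplets of hepatocytes, was the most abundant at 324 ± 54.0 (SD, n = 3), followed by Cideb at 125 ± 12.9, which acts in loading very low density lipoprotein, and G0s2 at 89.0 ± 30.0, a protein inhibitor of the lipase coded by Pnpla2. Pnpla2 itself was at 32.6 ± 1.17, Plin5 at 30.8 ± 7.21, the fatty acid transporter Cd36 at 30.4 ± 8.20 and Cidec at 20.7 ± 3.03. Plin4 was at 5.25 ± 1.34, Mogat1 at 1.47 ± 0.737 and Cidea at 0.632 ± 0.662. In this order the libraries overlapped between Cideb and G0s2, Pnpla2 and Plin5, Plin5 and Cd36, Cd36 and Cidec, and Mogat1 and Cidea. The other neighbours in the order did not overlap.

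The tissue label was checked against marker genes. Albumin (Alb) was the most abundant of 8 hepatocyte markers, at 26759 to 30373 in control, 17378 to 23280 in TAA and 33874 to 36663 in recovery. Adipocyte markers matter here because several of the 10 genes are abundant in fat. Their summed level over 7 markers was 9.33, 1.77 and 2.17 in control mice 1 to 3, 0.336, 0.695 and 0.803 in TAA mice and 1.13, 0.972 and 2.74 in recovery mice. The most abundant of them over all 9 libraries together was Cfd, at 8.41 in control 1 but at 0 in every TAA library. Adrb3 was above Cfd in control 3 (1.57 against 0.529), in every TAA library and in recovery 1 and 2. Lep was at 0 in all 9 libraries. Plin1, the perilipin of fat cells, did not pass the filter on low values and reached at most 0.194.

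**Figure D1:**
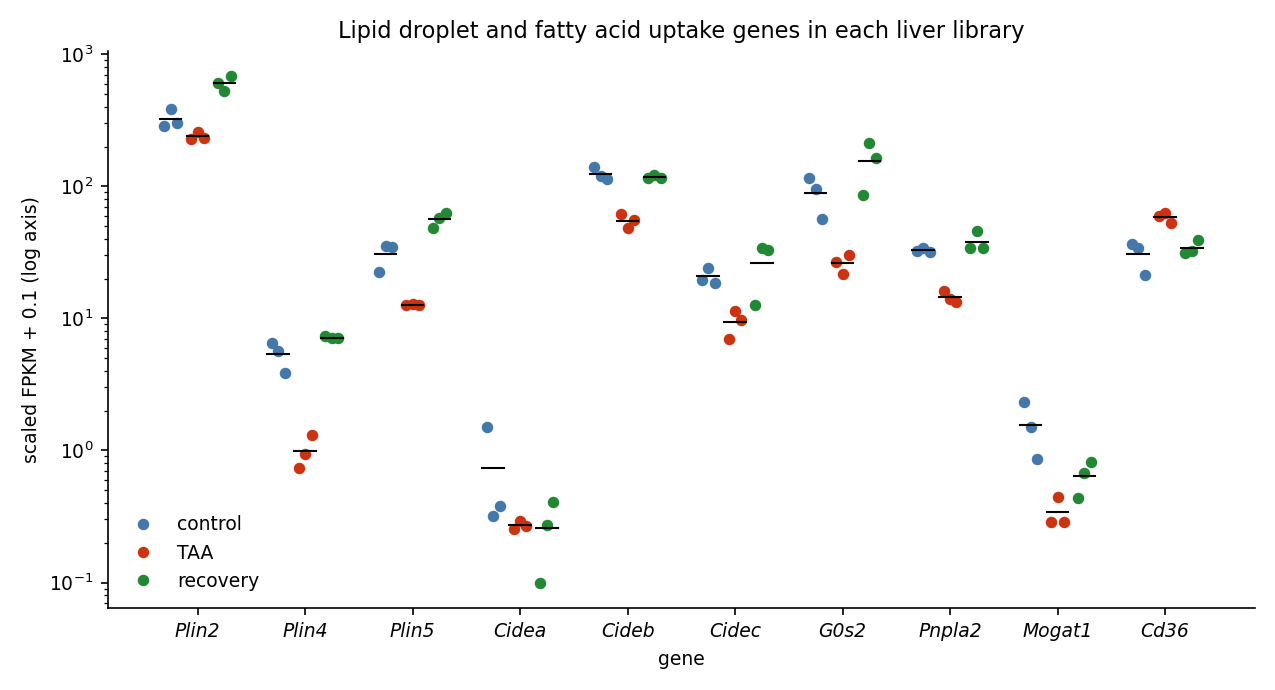
Scaled FPKM plus the pseudocount of 0.1 (log axis) of the 10 genes in each library, with 3 mice in each group of control, TAA and recovery and a line at each group mean. Plin4 lay between 0.641 and 1.20 in TAA and between 3.79 and 7.22 in the other groups, while Cd36 lay between 53.1 and 62.5 in TAA and between 21.1 and 39.0 in the others.

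Comparing TAA with control asks which of these genes differ in liver under continued injury. Of the 10 genes, 7 fell and none rose: Plin4, Mogat1, G0s2, Plin5, Cideb, Pnpla2 and Cidec, with log2 fold changes from -2.43 to -1.17 (n = 3 per group). Over all tested genes 8.02% passed as lower, and 25.0% passed in either direction. Levels in the TAA libraries were all below those of control for 9 of the 10, a pattern found for 31.0% of tested genes. It was 7 of the 10 with FPKM as deposited, against 9.39% of tested genes. Cd36 was the exception, with all TAA libraries above all controls. The median log2 fold change was -1.18 for the 10 genes and 0.02 over all tested genes.

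Among the droplet coat genes, Plin4 had the largest drop. Plin4, a perilipin of small and newly formed droplets in fat, was at 6.43, 5.54 and 3.79 in the controls and at 0.641, 0.847 and 1.20 in the TAA mice. Every TAA value was below every control value, and the log2 fold change was -2.43 ± 0.26 (SE, adjusted p = 2.19e-04). Its neighbour Plin5, which tethers droplets to mitochondria in tissues that oxidize fat, was at 22.5, 35.3 and 34.6 in control and at 12.5, 12.8 and 12.6 in TAA. The TAA mice lay close together below all controls, with a log2 fold change of -1.25 ± 0.17 (adjusted p = 6.86e-04). Plin2 was at 287, 386 and 300 in control and at 229, 258 and 231 in TAA. It did not reach a fold change of 2, with a log2 fold change of -0.43 ± 0.13 (adjusted p = 0.0287), and its sign depended on the scaling, as described with the other scalings. Plin2 was the most abundant of the 10 genes in all 3 groups.

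Both abundant CIDE genes fell. Cideb (ENSMUSG00000022219, chr14:55754050-55758458, minus strand) was at 139, 120 and 114 in control and at 61.8, 48.0 and 55.1 in TAA. The groups were far apart, with a log2 fold change of -1.18 ± 0.12 (adjusted p = 1.74e-04). Exons of Cideb share 1136 bases, 76.3% of their length, with Nop9 on the opposite strand, and a library kit that keeps no strand cannot tell reads of the genes apart there. Nop9 was at 10.4 to 11.0 in control and 7.27 to 8.49 in TAA, below Cideb in every library. Its values come from the same counting, whose strand setting was not stated, so they do not bound its part in the Cideb values. Cidec (ENSMUSG00000030278, chr6:113424634-113438550, minus strand), which fuses droplets into larger ones, was at 19.3, 24.2 and 18.6 in control and at 6.88, 11.3 and 9.63 in TAA. The groups did not overlap, the log2 fold change was -1.17 ± 0.19 (adjusted p = 0.00166), and without TAA 1 it was -0.97 and missed the fold threshold.

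Cidea (ENSMUSG00000024526), the CIDE protein of brown fat that also appears in fatty liver, did not pass the test. It was at 1.40, 0.219 and 0.280 in control and at 0.156, 0.193 and 0.169 in TAA, so a single control mouse stood out. The log2 fold change was -1.06 ± 0.55 (adjusted p = 0.141), and without control 1 it was -0.36. With quantile normalization it was -1.91 and Cidea passed as lower, and with FPKM as deposited (-0.60) and TPM (-0.51) it did not pass. That mouse also had the highest control values of Gpnmb (22.2, against 0.188 and 0.102) and Trem2 (7.10, against 0.302 and 0.389), markers of lipid-laden macrophages that were singled out after their values were seen, and of Cfd. Of the 11 genes of the macrophage list, 5 were highest in this mouse among the controls and 6 were lowest, such as Clec4f (13.8, against 32.3 and 36.2) and Cd5l (13.6, against 50.5 and 51.2), and the sum of the list was lowest in it (132, against 178 and 181). It was also the lowest control for 7 of 8 endothelial and 6 of 7 stellate cell markers. The part of these differences in the value of Cidea was not tested.

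Both the droplet lipase and its inhibitor fell. Pnpla2 (ENSMUSG00000025509, chr7:141455198-141460743, plus strand) codes for adipose triglyceride lipase, which takes the first fatty acid from triglyceride. It was at 32.1, 33.9 and 31.8 in control and at 16.0, 14.0 and 13.2 in TAA, with little spread inside either group and a log2 fold change of -1.18 ± 0.10 (adjusted p = 5.71e-05). G0s2 (ENSMUSG00000009633, chr1:193272161-193273217, minus strand) was at 116, 94.7 and 56.6 in control and at 26.5, 21.6 and 30.0 in TAA. The control mice ranged widely but all lay above the TAA mice, and the log2 fold change was -1.72 ± 0.26 (adjusted p = 0.00101).

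Mogat1 makes diglyceride from monoglyceride and is scarce in healthy liver. It was at 2.23, 1.42 and 0.758 in control and at 0.186, 0.346 and 0.188 in TAA. All TAA mice lay below all controls, with a log2 fold change of -2.12 ± 0.38 (adjusted p = 0.0024). Its exons share 200 bases, 12.8% of their length, with BC035947 on the opposite strand, which was at 0.0627 or below in every library. At levels as low as those of Mogat1 the pseudocount matters, and with a pseudocount of 1 its log2 fold change was -0.95 and it no longer passed.

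Cd36, which takes up long-chain fatty acids at the cell surface and is made by hepatocytes, macrophages and endothelium, went the other way. It was at 36.3, 33.9 and 21.1 in control and at 59.0, 62.5 and 53.1 in TAA. Every TAA mouse was above every control, but the log2 fold change of 0.97 ± 0.20 (adjusted p = 0.00478) was just short of the fold threshold. It passed with FPKM as deposited, TPM or quantile normalization, and with the main scaling when control 1 (1.12), control 2 (1.07) or TAA 3 (1.03) was left out. Cd36 was the sixth most abundant of the 10 genes in control and rank 2 in TAA, where its libraries overlapped those of Cideb. The order of the other 9 genes was the same in TAA as in control, and the remaining overlap between neighbours was that of Mogat1 and Cidea.

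**Figure D2:**
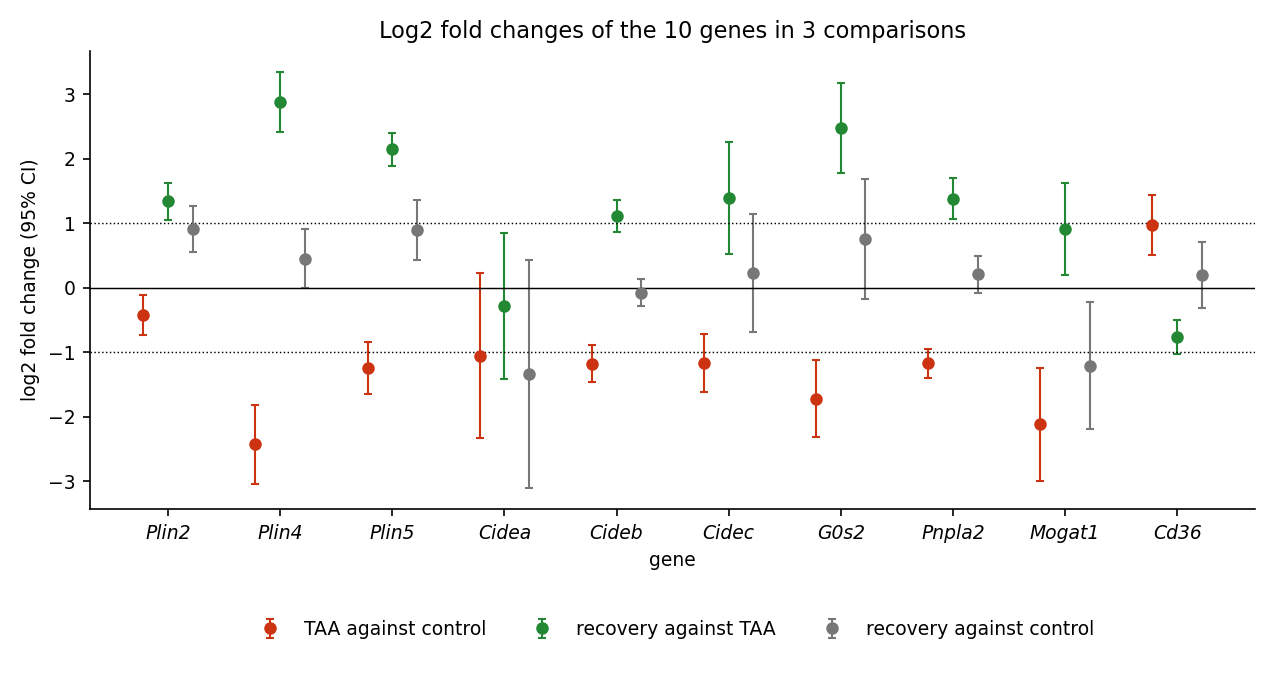
Log2 fold change with its 95% confidence interval for each of the 10 genes in the 3 comparisons, from limma on scaled FPKM with 3 mice per group. In TAA against control 7 genes lie at -1.17 or below and pass the test, in recovery against TAA 7 lie at 1.10 or above and pass, and in recovery against control none passes. The point of Plin2 in TAA against control changes sign with FPKM as deposited, TPM and quantile normalization. With quantile normalization alone, Cidea in recovery against TAA and Cideb in recovery against control also change sign.

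The size of these changes rests on how libraries are put on one scale. With FPKM as deposited the log2 fold changes of the 7 genes in TAA against control were -1.84 for Plin4, -1.62 for Mogat1, -1.09 for G0s2, -0.62 for Plin5, -0.55 for Cideb, -0.54 for Pnpla2 and -0.53 for Cidec. They were negative with the deposited values, TPM and quantile normalization alike, but of these 7 the number that passed was 3, 2 and 3, where 2.99%, 2.43% and 9.61% of all tested genes passed as lower. Cd36 passed as higher in each of these scalings, as did 31.1%, 40.4% and 10.9% of all tested genes, and Cidea passed as lower with quantile normalization. As deposited, Plin2 was at 237, 330 and 263 FPKM in control, at 295, 341 and 318 in TAA and at 549, 474 and 619 in recovery, so control and TAA overlapped and recovery was above both. Plin2 had a log2 fold change of 0.21 with deposited values, 0.40 with TPM and 0.73 with quantile normalization, against -0.43 with the main scaling. So the direction of Plin2 between TAA and control is not settled by these values. By contrast, Plin4 and Mogat1 passed as lower under all 4 scalings, each with the pseudocount of 0.1. Over all tested genes the share of calls that were higher in TAA was 67.9% with the main scaling, 91.2% with deposited values, 94.3% with TPM and 53.1% with quantile normalization.

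**Figure D3:**
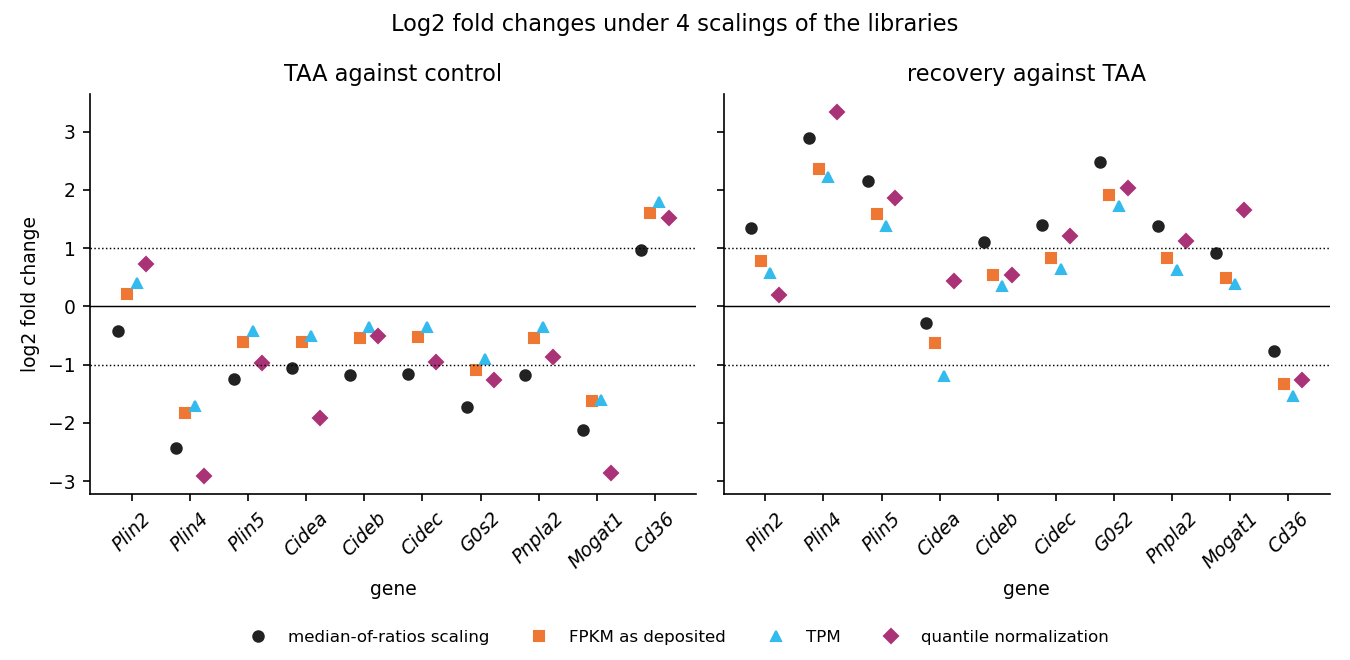
Log2 fold change of the 10 genes in TAA against control and in recovery against TAA with the main scaling, FPKM as deposited, TPM and quantile normalization, each from 3 mice per group. Plin2 in TAA against control runs from -0.43 to 0.73 and Cidea in recovery against TAA from -1.19 to 0.44, each changing sign, while Plin4 lies at -1.71 or below in TAA against control and at 2.23 or above in recovery against TAA.

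Cell type markers moved between the same groups. Of 8 hepatocyte markers 5 fell in TAA, and their summed level was 37772, 40598 and 36316 in control, 28658, 25676 and 21673 in TAA, and 45179, 46876 and 47962 in recovery. Their median log2 fold change was -1.18 with the main scaling and -0.54, -0.35 and -0.11 with FPKM as deposited, TPM and quantile normalization, where 1, 0 and 1 of the 8 passed as lower in limma and 0, 0 and 1 as higher. The median of the 10 genes was -1.18, -0.57, -0.39 and -0.96 in the same order. All 5 cholangiocyte markers rose in TAA, with a summed level of 18.7, 15.7 and 20.9 in control and of 442, 301 and 295 in TAA, most of it from Spp1. Stellate cell markers rose for 5 of 7, with sums of 38.7 to 52.9 in control and 98.2 to 101 in TAA and Reln as the most abundant.

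Macrophage markers rose for 3 of 11, with sums of 132 to 181 in control and 229 to 294 in TAA. Lyz2 was the most abundant over all libraries together and in every TAA library. Cd5l was above it in control 2 (50.5 against 45.6), in control 3 (51.2 against 43.3) and in every recovery library. Of 8 endothelial markers 1 rose, with sums of 42.7 to 75.8 in control and 59.7 to 74.1 in TAA. Kdr was the most abundant of them in control, with a mean of 18.8. In TAA Plvap was above Kdr in every library, with means of 17.0 and 11.7. Of the 7 adipocyte markers 2 could be tested and 1, Cfd, fell. With FPKM as deposited and with TPM, macrophage markers rose for 6 of 11 in each, stellate cell markers for 7 of 7, and endothelial markers for 2 and 4 of 8. None of 8 striated muscle markers passed in limma, but their sum was 38.8 in TAA 3 and at most 0.0783 in the other 8 libraries, with Acta1 as the most abundant. Plin4, Plin5 and Cd36 are also made in muscle, and without TAA 3 their log2 fold changes were -2.64, -1.25 and 1.03. In bulk liver, fewer cells of a type and less RNA per cell cannot be told apart, and the part of cell type in the changes of the 10 genes was not tested.

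Comparing recovery with TAA asks what differed after 8 weeks without the toxin. Of the 10 genes 7 rose and none fell: Plin4, G0s2, Plin5, Cidec, Pnpla2, Plin2 and Cideb, with log2 fold changes from 1.10 to 2.88 (n = 3 per group). Among all tested genes 7.12% passed as higher and 21.4% in either direction. For 7 of the 10 all recovery libraries were above all TAA libraries, against 29.4% of tested genes, and for Cd36 all were below. As deposited they were above for 6 of the 10, against 9.17% of tested genes. The median log2 fold change was 1.36, against -0.01 over all tested genes. This comparison shares its TAA libraries with the one before it, so the 6 genes that passed in both, Plin4, Plin5, Cideb, Cidec, G0s2 and Pnpla2, were not counted independently.

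The 3 perilipins had the recovery group as their highest. Plin4 was at 7.22, 6.97 and 6.95 in recovery, a narrow range above all TAA and all control mice, with a log2 fold change of 2.88 ± 0.20 over TAA (adjusted p = 3.18e-05). Plin5 was at 48.5, 57.9 and 63.1, also above every mouse of the other groups, and rose over TAA by 2.14 ± 0.11 (adjusted p = 9.56e-06). Plin2 was at 610, 530 and 683. All 3 mice were above all others, and the log2 fold change over TAA was 1.34 ± 0.12 (adjusted p = 9.87e-05). All 3 genes thus rose over TAA, and the part of the motifs in their promoter windows was not tested. For Plin2 the change was positive but did not pass with deposited FPKM (0.78), TPM (0.57) or quantile normalization (0.19).

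Cideb in recovery was at 116, 121 and 115, inside the control range and above TAA, with a log2 fold change of 1.10 ± 0.11 (adjusted p = 1.30e-04). It was 0.54 with FPKM as deposited, 0.34 with TPM and 0.53 with quantile normalization and passed in none of these. Nop9, its neighbour on the other strand, was at 9.04 to 9.89. Cidec was at 12.5, 33.8 and 32.7, so recovery 1 was far below the other two mice. It was above the TAA range after scaling, but as deposited it was at 11.2 FPKM, below TAA 2 and TAA 3, of which the lower was at 13.3 FPKM. Its log2 fold change over TAA was 1.39 ± 0.38 (adjusted p = 0.0168), and it no longer passed when TAA 1, recovery 2 or recovery 3 was left out, with adjusted p of 0.0565, 0.0587 and 0.0526 in a range of 0.000596 to 0.0587 over the 6 libraries left out in turn. With FPKM as deposited (0.83) and TPM (0.63) Cidec did not pass either, while with quantile normalization (1.21) it passed. Cidea was listed at 0 in recovery 1 and was at 0.174 and 0.307 in the other recovery mice, overlapping TAA. Its log2 fold change of -0.29 (adjusted p = 0.651) did not pass and turned to 0.44 with quantile normalization.

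G0s2 was at 86.3, 211 and 164 in recovery, above all TAA mice but with the lowest mouse inside the control range. It rose over TAA by 2.48 ± 0.30 (adjusted p = 3.89e-04). Pnpla2 was at 34.1, 45.4 and 34.2, above every TAA mouse, and rose by 1.38 ± 0.14 (adjusted p = 1.40e-04). The change was 0.82 with FPKM as deposited and 0.62 with TPM, where Pnpla2 did not pass. With quantile normalization it was 1.12 and Pnpla2 passed. Mogat1 was at 0.336, 0.575 and 0.725, overlapping TAA and below all controls. Its log2 fold change over TAA of 0.91 ± 0.31 (adjusted p = 0.0392) missed the fold threshold, which it passed without TAA 2 (1.12) or recovery 1 (1.17), with quantile normalization (1.66) and with a pseudocount of 0.01 (1.14). Cd36 was at 31.2, 32.2 and 39.0, below all TAA mice, with a log2 fold change of -0.77 ± 0.11 (adjusted p = 9.69e-04) that also missed it and passed with deposited FPKM (-1.33), TPM (-1.54) and quantile normalization (-1.26).

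The recovery order of levels was Plin2, G0s2, Cideb, Plin5, Pnpla2, Cd36, Cidec, Plin4, Mogat1 and Cidea. Libraries overlapped between G0s2 and Cideb, Pnpla2 and Cd36, and Cd36 and Cidec. Mean levels in recovery were 608 ± 76.6 for Plin2, 154 ± 63.2 for G0s2, 118 ± 3.23 for Cideb, 56.5 ± 7.40 for Plin5 and 37.9 ± 6.48 for Pnpla2 (SD, n = 3). Hepatocyte markers rose for 4 of 8 over TAA (1 of 8 with each of the other 3 scalings), and markers of stellate cells fell for 5 of 7 and of cholangiocytes for 4 of 5. Their summed levels in recovery were 39.1 to 46.1 for stellate cells and 27.9 to 38.4 for cholangiocytes. Macrophage markers fell for 3 of 11 and rose for 1, and of 8 endothelial markers 1 fell. The part of these shifts in the rise of the 7 genes was not tested.

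Comparing recovery with control asks whether the genes were back at the level of untreated mice. None of the 10 passed in limma, against 0.993% of all tested genes. At an unadjusted p under 0.05 in limma there were 3, Plin2, Plin5 and Mogat1. The share of all tested genes at that threshold is not given here, so nothing is read from this count. With a test against a fold change of 2 (limma treat) there were 0, against 0.00% of all tested genes. Libraries of the groups did not overlap for 5 of the 10, with Plin2, Plin4, Plin5 and Pnpla2 higher and Mogat1 lower in every recovery mouse, against 30.2% of tested genes in either direction. The log2 fold change of Plin2 was 0.91 ± 0.15 (95% confidence interval 0.55 to 1.27, adjusted p = 0.0378), below the fold threshold. That of Plin5 was 0.89 ± 0.19 (0.43 to 1.36, adjusted p = 0.0666) and that of Mogat1 was -1.21 ± 0.41 (adjusted p = 0.15). The other 7 genes had log2 fold changes from -1.34 for Cidea to 0.76 for G0s2 with adjusted p of 0.223 or more, which does not show that they were equal to control.

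For the 7 genes that fell in TAA, the log2 fold change of recovery against control was set against that of TAA against control. On this log2 scale a share of 0% is the control mean, 100% is the TAA mean, and a negative share lies past the control mean on the far side. The share was -71.5% for Plin5, -43.9% for G0s2, -19.2% for Cidec, -18.5% for Plin4, -17.3% for Pnpla2, 6.65% for Cideb and 57.2% for Mogat1. So 5 of the 7 genes were past the control mean, and Mogat1 was between the control and TAA means. The sizes depend on the scaling: with FPKM as deposited the share was -158% for Plin5, -76.7% for G0s2, -56.2% for Cidec, -51.7% for Pnpla2, -28.5% for Plin4, 0.410% for Cideb and 69.8% for Mogat1. With TPM it ran from -224% for Plin5 to 76.6% for Mogat1, and with quantile normalization from -92.4% to 41.8% for the same genes, with Cideb at -3.46%. Among recovery mice 1 to 3 the share of Plin5 was -54.6%, -75.0% and -84.9%, and that of Mogat1 was 81.6%, 51.8% and 38.2%. The 3 mice were close together for Plin4, at -19.9%, -17.9% and -17.6%, and for Cideb, at 8.01%, 2.86% and 9.08%. For Pnpla2 they were at -5.57%, -40.5% and -5.93%. Mice differed most for Cidec, at 61.3%, -61.5% and -57.3%, a spread of 69.7% (SD, n = 3). G0s2 was at -0.976%, -75.9% and -54.8%, again with recovery 1 apart from the other recovery mice. These shares have no test of their own.

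The recovery mice were older, and the hour of collection is not known for any group. Genes of the circadian clock were looked at after their values were seen. Arntl was at 0.424, 0.971 and 0.635 in control, at 1.54, 1.79 and 1.85 in TAA and at 3.98, 6.11 and 6.64 in recovery, and rose over control in TAA by a log2 fold change of 1.29 (adjusted p = 0.00463) and in recovery by 2.90 (adjusted p = 0.0145). Dbp was at 47.1 to 55.6 in control, 26.3 to 35.2 in TAA and 2.85 to 10.3 in recovery, with a log2 fold change against control of -0.76 in TAA (adjusted p = 0.00196), which missed the fold threshold, and of -3.21 in recovery (adjusted p = 0.0216). The part of the hour of collection or of age in the levels of the 10 genes was not tested in any of the 3 comparisons, and age and recovery cannot be told apart.

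Ratios of genes within a library are the same with deposited FPKM, TPM and the main scaling, which multiply a library by 1 factor. They were chosen after the values were seen and carry no test. Cd36 over Plin2, the fatty acid transporter over the main droplet coat, was 0.127, 0.0878 and 0.0702 in control, 0.257, 0.242 and 0.229 in TAA, and 0.0511, 0.0608 and 0.0571 in recovery. The 3 groups did not overlap, with TAA highest and recovery lowest. Plin5 over Plin2 was 0.0785, 0.0915 and 0.115 in control, 0.0545, 0.0497 and 0.0543 in TAA, and 0.0794, 0.109 and 0.0923 in recovery. The TAA mice were below both other groups, which overlapped, so Plin5 was lower relative to Plin2 in TAA. Plin4 over Plin5 was 0.286, 0.157 and 0.110 in control, 0.0513, 0.0660 and 0.0953 in TAA, and 0.149, 0.121 and 0.110 in recovery, so within the neighbouring pair Plin4 was the lower in TAA relative to its neighbour. G0s2 over Pnpla2, the inhibitor over its lipase, was 3.61, 2.79 and 1.78 in control, 1.66, 1.54 and 2.27 in TAA, and 2.53, 4.66 and 4.80 in recovery. TAA overlapped control, and every recovery mouse was above every TAA mouse.

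**Figure D4:**
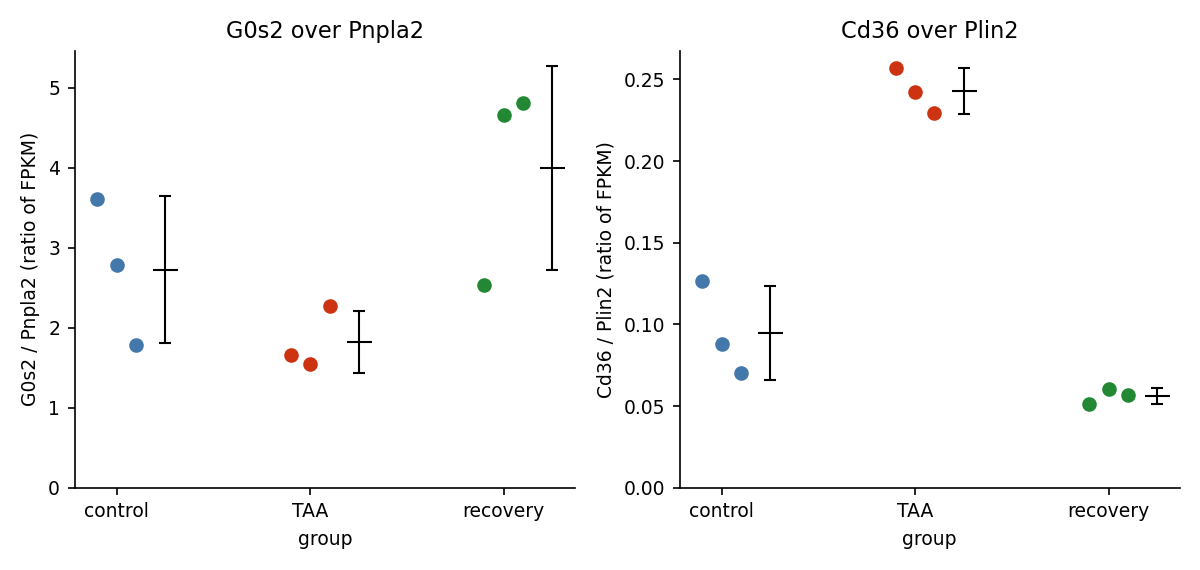
Ratios of FPKM between genes of the same library for G0s2 over Pnpla2 and Cd36 over Plin2, with 1 point per mouse, 3 mice per group, and the group mean with its SD to the right of the points. Cd36 over Plin2 lies between 0.229 and 0.257 in TAA and between 0.0511 and 0.127 in the other groups, and G0s2 over Pnpla2 lies between 1.54 and 2.27 in TAA and between 2.53 and 4.80 in recovery.

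Genes with a like profile were ranked by the root-mean-square difference in log2 level, each gene centred on its own mean, over the 9 libraries and among 10962 genes. Among the closest to Plin2 were Btg1 (0.17) and Pxmp4 (0.18). Plin4 was closest to Rhbg (0.21), Sycp3 (0.26) and Tymp (0.28), and Plin5 to Fxyd1 (0.19), Apoa1 (0.20) and Sdsl (0.22). Cideb and Pnpla2 had the closest matches of the 10: Gchfr (0.06), D2hgdh (0.06) and Sdc2 (0.08) for Cideb, and Uqcrq (0.10), Flvcr2 (0.12) and Rarres2 (0.12) for Pnpla2. These genes were also the closest pair among the 10, with a difference of 0.19. For Cidec they were Slc25a22 (0.31), Eif1 (0.31) and St7l (0.32), and for G0s2 Leap2 (0.36), Sycp3 (0.39) and Tlr12 (0.39). For Mogat1 they were Tox (0.37), Aatk (0.38) and Slco1b2 (0.39), and for Cd36 Ctla2a (0.15), Tmem184b (0.15) and Rbbp8 (0.16). Cidea had no close match, its nearest being Ptges3 (0.54), Reps2 (0.61) and Arl13b (0.62).

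Other genes of the same pathways were taken from 6 lists holding 73 genes, of which 71 could be tested and Plin1 and Acsl6 could not. In TAA against control 9 rose and 34 fell (median log2 fold change -0.97), and in recovery against TAA 30 rose and 7 fell (median 0.88). Over all tested genes 17.0% passed as higher and 8.02% as lower in TAA against control. In recovery against TAA these shares were 7.12% and 14.3%. They are also the background of the main counts of each list below. With FPKM as deposited the counts were 17 up and 19 down in TAA against control and 17 up and 16 down in recovery against TAA. The shares over all tested genes were then 31.1% up and 2.99% down, and 2.90% up and 26.5% down. So the balance between directions over the lists depends on the scaling, as do the shares over all tested genes. In TAA against control the calls as lower, 34 and 19 of 71, were above these shares with both scalings. In recovery against TAA so were the calls as higher, 30 and 17 of 71. With TPM the shares were 40.4% up and 2.43% down in TAA against control. They were 2.23% up and 35.9% down in recovery against TAA.

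Of 10 tested genes of droplet coat and assembly, 4 fell and 1 rose in TAA, and 3 rose in recovery over TAA. In both comparisons 2 fell and 2 rose with FPKM as deposited and with TPM. Fitm1, which helps droplets to form at the endoplasmic reticulum, was at 24.1 ± 9.17 in control, 0.555 ± 0.304 in TAA and 5.17 ± 2.08 in recovery (SD, n = 3). Its log2 fold change in TAA was -5.26 (adjusted p = 3.85e-05). Hsd17b11, a droplet enzyme, went from 137 ± 4.36 to 32.8 ± 2.05 and was at 118 ± 11.7 in recovery, with a log2 fold change of -2.06 in TAA. Hilpda, an inhibitor of Pnpla2, rose in TAA from 1.91 ± 0.740 to 5.45 ± 1.20, a log2 fold change of 1.51 (adjusted p = 0.00288), while G0s2, the other inhibitor, fell.

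Of 10 lipolysis genes 6 fell and 1 rose in TAA, and 4 rose and 1 fell in recovery over TAA. In each comparison 2 of the 10 fell and 3 rose with FPKM as deposited and with TPM. In TAA against control 2.99% and 2.43% of all tested genes then passed as lower, and 31.1% and 40.4% as higher. So the counts of the list in TAA turn with the scaling, with the calls as lower still above their share. Mgll, which splits monoglyceride, was at 96.3 ± 3.33 in control, 16.7 ± 2.84 in TAA and 90.0 ± 1.38 in recovery, with log2 fold changes of -2.53 and 2.44. The one that rose was Pnpla3, a droplet protein and relative of Pnpla2. It was at 0.0975 ± 0.0305 in control, 3.78 ± 1.04 in TAA and 0.0468 ± 0.0618 in recovery, with log2 fold changes of 4.27 and -4.76. At such low control and recovery levels the size rests on the pseudocount, with 2.10 and -2.17 at a pseudocount of 1 and 5.13 and -6.72 at 0.01. Pnpla3 and Pnpla2 thus moved in opposite directions in both comparisons.

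Of 13 genes of triglyceride synthesis 3 fell and 1 rose in TAA, and 4 rose and 1 fell in recovery over TAA. The riser in TAA was Mogat2, the other monoglyceride acyltransferase besides Mogat1. It was at 0.114 ± 0.101 in control, 1.75 ± 0.517 in TAA and 0.130 ± 0.0451 in recovery, with log2 fold changes of 3.17 and -2.98. Mogat1 fell in the same TAA livers, so every TAA library had more Mogat2 than Mogat1 and every control library the reverse. Both log2 fold changes of Mogat2 depend on the pseudocount, since it is near 0.1 in control and recovery: with a pseudocount of 1 they were 1.29 and -1.26, and with 0.01 they were 4.09 and -3.65. The balance of the list turns with the scaling, and the shares over all tested genes shift as well. As deposited, 3 rose and 1 fell in TAA and 1 rose and 5 fell in recovery over TAA, and with TPM it was 4 and 0 in TAA and 1 and 5 in recovery over TAA. The median of the list was -0.66 in TAA with the main scaling, -0.02 with FPKM as deposited and 0.17 with TPM, and in recovery over TAA it was 0.52, -0.04 and -0.25.

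Of 19 tested genes of fatty acid uptake, binding and activation 7 fell and 5 rose in TAA, and 8 rose and 5 fell in recovery over TAA. Those that fell include genes typical of hepatocytes: Acsl1, which activates fatty acids, with a log2 fold change of -2.64, and Slc27a2, a transporter and activating enzyme, which went from 756 ± 10.4 to 126 ± 10.2 and was at 634 ± 24.4 in recovery. The largest rises were those of Fabp5 (log2 fold change 3.70), a fatty acid binding protein of macrophages and skin, Lpl (1.97), the lipase of capillary walls, and Acsl4 (1.64), which activates arachidonic acid. The median of the list was -0.49 in TAA with the main scaling and 0.15 with FPKM as deposited, so the list as a whole has no direction that holds across scalings.

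Of 8 PPAR receptors and partners 5 fell in TAA and 1 rose in recovery over TAA. Ppara, the main PPAR of hepatocytes, was at 143 ± 15.4 in control, 51.3 ± 4.98 in TAA and 96.6 ± 14.3 in recovery, with a log2 fold change of -1.48 in TAA (adjusted p = 4.54e-05). In TAA against control, with FPKM as deposited and with TPM, 0 of the 8 passed in limma as lower and 1 as higher. With quantile normalization 2 passed as lower and 0 as higher. In recovery over TAA 0 passed with FPKM as deposited, 1 passed as lower with TPM and 2 as higher with quantile normalization. Of 11 PPARA targets 9 fell and 1 rose in TAA, and 10 rose in recovery over TAA. Cyp4a14, which oxidizes the far end of fatty acids, went from a mean of 2368 in control to 66.3 in TAA and 1991 in recovery, with a log2 fold change of -5.24 in TAA (adjusted p = 1.63e-05). With deposited FPKM, TPM and quantile normalization 9, 8 and 7 of the 11 fell in TAA. In recovery over TAA 7 of the 11 rose with each of these scalings.

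Pdk4, which limits glucose oxidation, was the PPARA target that rose in TAA. It was at 3.99 ± 1.38 in control, 20.1 ± 4.77 in TAA and 21.2 ± 4.05 in recovery. It was also 1 of 2 pathway genes that passed in recovery against control, with a log2 fold change of 2.42 (adjusted p = 0.0161). The other was Fitm1, which fell, with a log2 fold change of -2.21 (adjusted p = 0.0337). With any 1 of the 6 libraries left out Fitm1 did not pass, at log2 fold changes of -2.51 to -1.92, and Pdk4 did not pass without recovery 2 (2.35) or recovery 3 (2.32).

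**Figure D5:**
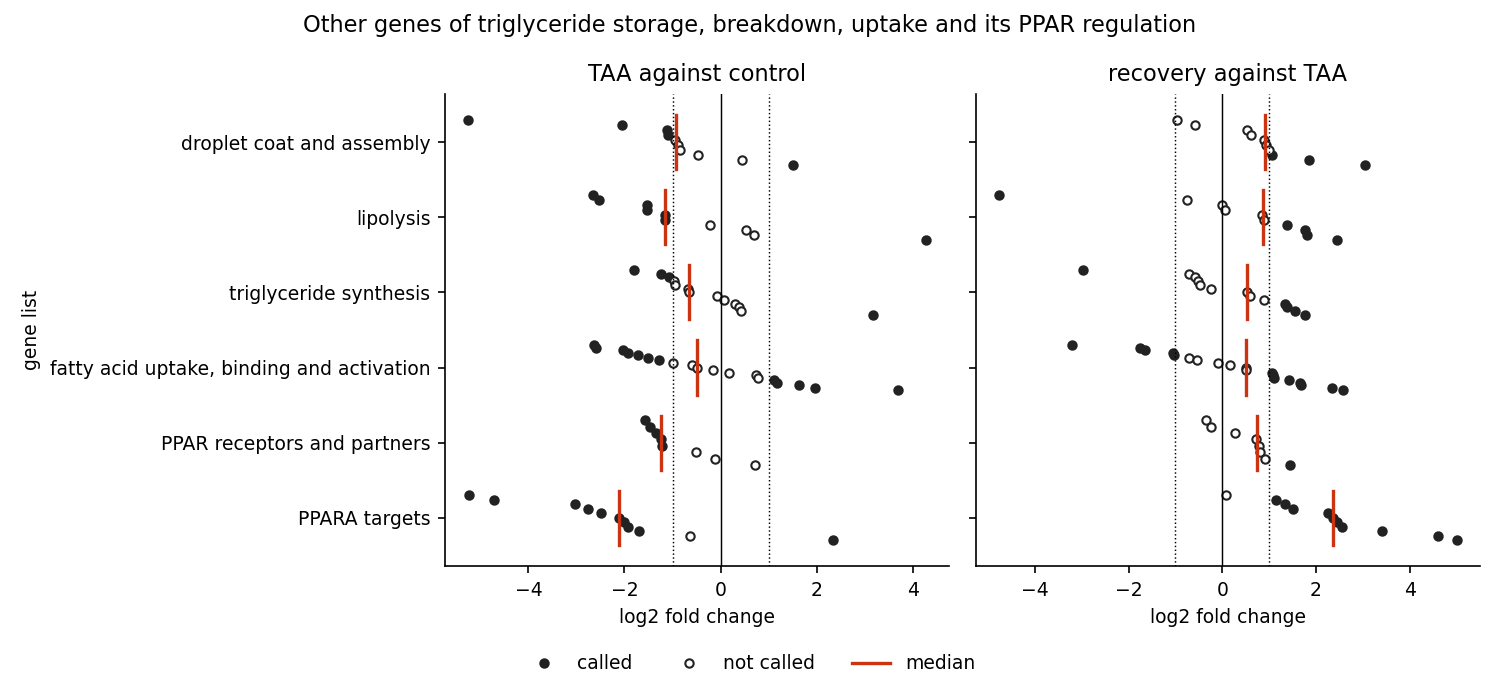
Log2 fold changes of the tested genes of 6 pathway lists in TAA against control and in recovery against TAA, with 1 point per gene (filled where it passed the test), a bar at the median and 3 mice per group. The PPARA targets have medians of -2.12 and 2.36, and the uptake list has medians of -0.49 and 0.50, which are 0.15 and -0.06 with FPKM as deposited.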

How the data were processed

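The deposited mRNA table holds FPKM computed by the authors from 150 bp paired-end reads mapped to mm10 with HISAT2 2.2.1 and counted with featureCounts 1.5.0-p3. Median-of-ratios factors over the 14005 genes above 0 in all 9 libraries scaled it further. The filter on low values asked for a mean FPKM of 0.1 or more and left 14094 of 21873 genes to test. The log2 of scaled FPKM plus a pseudocount of 0.1 was fitted with limma 3.58.1 (R 4.3.3, trend on the mean), each comparison on its own 6 libraries, with Benjamini-Hochberg adjustment over all tested genes. The code was tested on simulated data.

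Members were the rows whose gene symbol is one of the 10. The members and the gene lists were chosen with earlier results of these data known. All 10 were named, and from each pathway list up to 3 genes with the largest rise and up to 3 with the largest fall among those that passed; of these the text gives examples. Likeness took, for each of the 10, the 3 genes with mean scaled FPKM of at least 1 and the smallest root-mean-square difference; 1 of these is not reported here. From marker lists the most abundant gene over all libraries together and those at 0 were named, and others where a group or library differed.

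Alternatives were pseudocounts of 1 and 0.01, no filter, a filter at a mean FPKM of 1, FPKM as deposited, TPM, quantile normalization, a fit on all 9 libraries, no trend, a replicate block, limma treat against a fold change of 2, and leaving out each library. Python 3.11.15, pandas 2.3.3, numpy 2.4.6 and matplotlib 3.10.9 were used.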

Additional observations from a re-analysis of the deposited data

How the results depend on the processing

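Of the 10 genes, 7 passed in TAA against control, all lower, and 7 in recovery against TAA, all higher, where 25.0% and 21.4% of all tested genes passed in either direction. With FPKM as deposited 4 passed in TAA against control (3 lower, 1 higher) and 4 in recovery against TAA (3 higher, 1 lower), beside 34.1% and 29.4% of all tested genes. With TPM it was 3 (2 lower, 1 higher) and 4 (3 higher, 1 lower), beside 42.8% and 38.2%. With limma treat against a fold change of 2 it was 1, lower, and 3, all higher, beside 10.2% and 7.69%. In TAA against control, counts in either direction with FPKM as deposited, TPM and treat are thus near or below the share over all genes. By direction, 2.99%, 2.43% and 3.55% of all tested genes passed as lower, beside 3, 2 and 1 of the 10. Quantile normalization gave 5 (4 lower, 1 higher) and 7 (6 higher, 1 lower), beside 20.5% and 18.3%. Leaving out 1 library at a time gave 6 to 8 in each. The median share of the TAA change left in recovery, -18.5%, was -51.7% with FPKM as deposited and -75.3% with TPM, and -23.2% to -5.75% with 1 library left out. The cause of these differences was not tested.

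The log2 fold change of Plin2 in TAA against control, -0.43, changed sign to 0.21 with FPKM as deposited, 0.40 with TPM and 0.73 with quantile normalization. With quantile normalization Cidea in recovery against TAA was 0.44 and Cideb in recovery against control 0.0179. With 1 library left out, signs changed for 4 values that had not passed: Cidea in recovery against TAA ran from -0.72 to 0.29, and in recovery against control Cideb ran from -0.14 to 0.0035, Cidec from -0.0234 to 0.69 and Cd36 from -0.0462 to 0.35. The cause was not tested.

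Of the pathway genes 43 passed in TAA against control (42 to 44 with 1 library left out), 37 in recovery against TAA (35 to 38) and 2 in recovery against control. The last count was 0 with no filter, 4 with a fit on all 9 libraries, 1 with no trend, 0 with limma treat and 0 to 1 with 1 library left out. With a replicate block it was 0, the calls of the 10 genes did not change in any of the 3 comparisons, and 3517, 3026 and 17 of all tested genes passed, against 3520, 3017 and 140. Libraries of the same number showed correlations of -0.070 to 0.125, so the numbers do not show a pairing. A filter at a mean FPKM of 1 leaves no value for Cidea and Mogat1. The values carry no counts, so levels below 1, as for Cidea and Mogat1, have no counting interval.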
